A study of Mus musculus with 23 samples.

Results

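The regions described here are narrow peaks of trimethylated histone H3 lysine 4 (H3K4me3) that were called in wild-type (WT) mouse embryonic stem cells and had no counterpart in the list from Bach1 knockout cells. A member is a WT peak under 5000 bp wide that shares not even 1 bp with a knockout peak. There were 7440 such peaks among 17429 WT peaks under that width and 18779 WT peaks in all, and they are called absent peaks below. The other 9989 narrow WT peaks overlapped a knockout peak and are called kept peaks. The members were chosen by the peak calls of these same lists, so their number, score and width are descriptions and carry no test.

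The knockout cells carried the genotype Bach1 -/-, made with CRISPR/Cas9, and the WT cells were unedited E14Tg2A, a mouse embryonic stem cell line. Both were grown on gelatin in medium with fetal bovine serum and leukemia inhibitory factor. The DoxBach1 cells used to map the factor carried a piggyBac transgene for BACH1 with a FLAG tag at its C-terminus, switched on by doxycycline (0.5 μg/μL in the labels, for 6 hours). BACH1 binding was therefore read from induced, tagged protein and not from the protein at its own level. H3K4me3, H3K4me1 and H3K27ac were profiled by chromatin immunoprecipitation (ChIP) in 1 sample per genotype, NANOG in 2 replicates per genotype and FLAG-BACH1 in 1 sample. No knockout clone is named in the labels, so differences between these cell populations other than the loss of BACH1 cannot be told apart from it.

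H3K4me3 is placed by the SET1 and MLL methyltransferase complexes, chiefly around the start sites of genes with CpG-rich promoters, where its height and width follow promoter activity. Weaker and narrower H3K4me3 is found at less active or bivalent promoters and at strong enhancers. H3K4me1 marks enhancers and the flanks of promoters, and H3K27ac marks active elements of both kinds. NANOG is a homeobox factor of the pluripotent state that binds mostly enhancers. BACH1 is a heme-sensing basic leucine zipper factor that pairs with small MAF proteins on antioxidant response elements. Which of the peaks lie at gene starts could not be read from the sources used here, since positions are in the mm9 build and no mm9 annotation was at hand. The regions are therefore named by position, and no genes or sequences are given for them.

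The knockout H3K4me3 list was shorter than the WT list, with 11157 peaks covering 33.6 Mb in the knockout and 18779 peaks covering 52.8 Mb in WT. Both lists began at a score of 50.01, where the score is the caller's 10 times −log10 p, and their median scores were 179 in the knockout and 296 in WT. Few peaks were found in the knockout alone: 40 of the 11157 knockout peaks, or 0.359%, overlapped no WT peak. Read depth is not stated for any list, so a lower yield of the knockout ChIP and a lower level of the mark cannot be told apart. Other lists differed in length too: H3K27ac had 25755 knockout and 44579 WT peaks, H3K4me1 had 54227 knockout and 36001 WT peaks, and NANOG had 2071 and 20025 knockout peaks against 9247 and 10031 WT peaks in replicates 1 and 2. In the RNA libraries, Bach1 stood at 1.69, 1.76 and 2.05 TPM in the knockout and at 2.35, 2.50 and 2.70 TPM in WT. All 8 stem cell markers checked were expressed in both genotypes, with means of 68.8 to 3701 TPM in the knockout and 59.3 to 2771 TPM in WT. Of 8 fibroblast markers, Col3a1, Dcn and Postn were under 0.1 TPM in both genotypes, and the 8 together summed to 34.3 to 37.6 TPM in knockout and 155 to 159 TPM in WT libraries. Most of that sum was Vim, the intermediate filament gene vimentin, at a mean of 23.6 ± 1.25 TPM in the knockout and 153 ± 1.84 TPM in WT (SD, n = 3 each). Thy1, a surface glycoprotein gene of the same list, went the other way, at 12.0 ± 0.501 TPM in the knockout and 3.11 ± 0.192 TPM in WT. Nanog itself averaged 116 ± 4.73 TPM in the knockout and 306 ± 2.52 TPM in WT. The part of these RNA differences in the peak lists was not tested.

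The absent peaks were the weak end of the WT list. They made up 42.7% of narrow WT peaks (40.5%, or 7609, of WT peaks of any width had no knockout peak), against 12.5% of the 1350 WT peaks at or over 5000 bp (169 peaks). Their median score was 95.7 (25th to 75th percentile 66.9 to 149), against 517 (329 to 796) in kept peaks. The share absent was 98.3% in the lowest of 10 equal score bins (scores 50.01 to 65.3), 91.3% in decile 3, 75.2% in decile 4, 44.1% in decile 5, 15.5% in decile 6 and 4.07% in decile 7. In the top decile 1 of 1742 peaks was absent. The lowest 3 deciles held 4998 absent peaks, 67.2% of them, and 231 kept peaks, 2.31% of those.

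Kept peaks near the bottom of the WT list were also near the bottom of the knockout list. In decile 4 the knockout peak under a kept WT peak had a median score of 64.0, which is the 8.86th percentile of the knockout list, and in decile 5 it had a median of 74.4, the 14.2nd percentile. In decile 10 the median was 468, the 87.9th percentile. The exception was decile 1, where the 30 kept peaks lay on knockout peaks with a median score of 138. In deciles 2 to 5 the medians were 61.8 to 74.4, close to the lowest score listed.

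**Figure D1:**
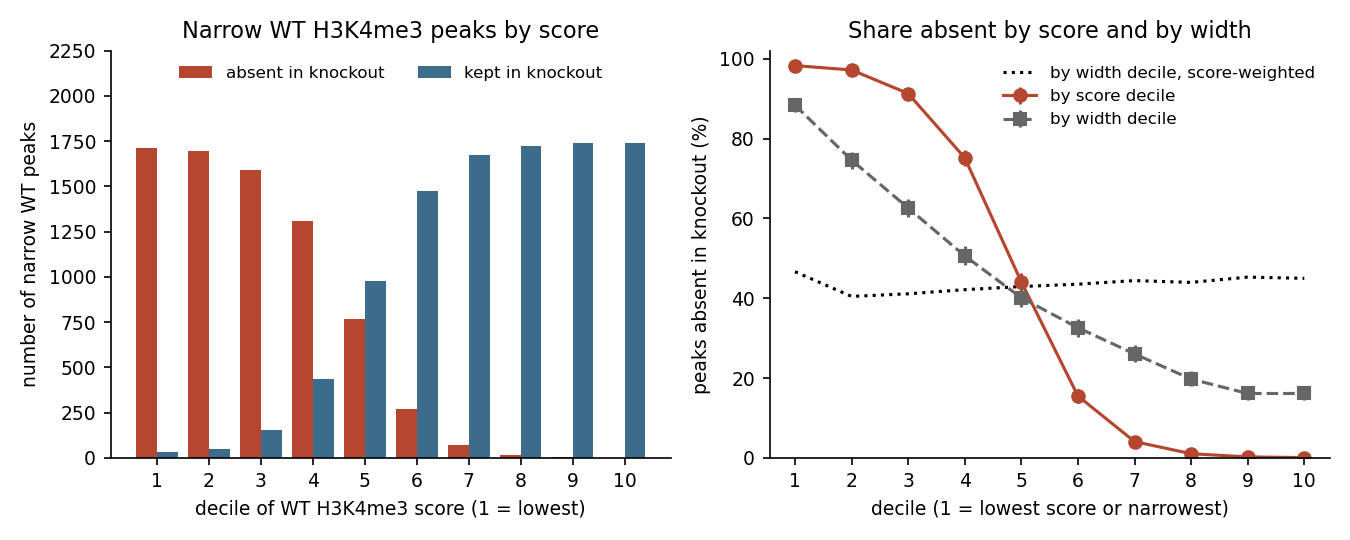
Narrow WT H3K4me3 peaks in 10 bins of equal size, with the number absent and kept in the knockout by WT score (left) and the percent absent by score and by width (right; bars are exact 95% binomial intervals, which cover counting error only). The share absent falls from 98.3% to 0.0574% over the score deciles and from 88.4% to 16.1% over the width deciles. Once each width bin is weighted to the score deciles of all narrow peaks it lies between 40.4% and 46.6%.

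Absent peaks were narrower, and the width difference went with the score. The median width was 1830 bp in absent and 2749 bp in kept peaks, and the share absent was 88.4% in the narrowest decile (357 to 1361 bp) and 16.1% in the widest (3851 to 4997 bp). When each width decile was weighted to the score deciles of all narrow peaks, the share absent was 46.6% in the narrowest decile and 40.4 to 45.3% in the other 9. Within score bins the order turned, and in deciles 4 to 9 the absent peaks had the larger median width. In decile 5 the absent peaks had a median width of 2320 bp and the kept peaks 2090 bp, in decile 6 2748 and 2352 bp, and in decile 7 3047 and 2632 bp.

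At the edges of the rule, the 5 widest members measured 4968 to 4994 bp, and the 5 narrowest unmatched WT peaks left out by the width limit measured 5027 to 5098 bp. The 5 members closest to a knockout peak lay 7 to 23 bp from it, with WT scores of 54.2 to 189. The 5 kept peaks with the smallest overlap shared 7 to 46 bp with a knockout peak and had WT scores of 54.5 to 339.

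Few absent peaks lay right beside a knockout H3K4me3 peak, which the rule bars them from overlapping. The median distance to the nearest knockout H3K4me3 peak was 25.9 kb (25th to 75th percentile 9.14 to 69.2 kb). A knockout peak lay within 1 kb of 234 members, 3.15%, and within 10 kb of 1985, 26.7%. Another 1325, 17.8%, were over 100 kb from one. Absent peaks lay closer to other WT H3K4me3 peaks than kept peaks did, with a median gap of 12.9 kb against 21.6 kb. Another WT peak lay within 10 kb of 43.8% of absent and 32.1% of kept peaks. These gaps and shares were not matched to score or width.

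Along the chromosomes, absent peaks formed 4316 runs with no other WT H3K4me3 peak in between, of which 2533 were single peaks and 139 held at least 5 peaks (826 peaks in all). With 40.5% of WT peaks unmatched, neighbours often share that state by number alone, and no clustering is read from these counts. The longest runs had 16 peaks each. One spanned 241 kb at chr15:102761395-103002635, with member scores of 51.5 to 190. The other spanned 345 kb at chr11:117145610-117490558, with member scores of 55.7 to 273. No peak in either run reached the score of the median kept peak.

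By chromosome, the share absent ran from 37.4% on chromosome X (196 of 524 narrow peaks) and 37.5% on chromosome 1 (346 of 922) to 48.7% on chromosome 11 (733 of 1505), with 26.1% on chromosome Y resting on 6 of 23 peaks. Weighting each chromosome to the score deciles of all narrow peaks left chromosome 11 at 48.8% and put chromosome 8 at 47.3%, chromosome 1 at 41.2% and chromosome X at 34.8%. The 95% interval before weighting was 46.2 to 51.3% on chromosome 11 and 33.2 to 41.7% on chromosome X.

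By 1 bp overlap and before matching, H3K27ac was the mark that set absent and kept peaks furthest apart, and most of that gap was gone once the kept peaks were weighted to score. A WT H3K27ac peak overlapped 4302 of 7440 absent peaks, 57.8% (95% interval 56.7 to 58.9%), and 9132 of 9989 kept peaks, 91.4% (90.9 to 92.0%). To compare like with like, kept peaks were weighted so that their score deciles had the frequencies of the absent peaks, which brought their share to 62.0%. With 50% of the H3K4me3 peak to be covered, the difference (absent minus kept) was -1.39 percentage points for H3K27ac and 16.7 for H3K4me1. In deciles 4 to 6, where both groups are well filled (2348 absent and 2881 kept peaks), the shares were 73.3% of absent and 76.2% of weighted kept peaks. The interval of the absent share there was 71.5 to 75.1%. Intervals here are exact binomial ones that cover counting error only, and with 1 list per mark and genotype there is no replicate check and no test. Where an absent peak did carry WT H3K27ac, the strongest overlapping H3K27ac peak had a median score of 145 (the 55.6th percentile of its list). At kept peaks the median was 485 (the 78.9th percentile). These scores were not matched to H3K4me3 score or width.

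The order of absent and kept peaks in H3K4me1 overlap turned with the matching of scores. A WT H3K4me1 region touched 52.3% of absent peaks (51.2 to 53.5%) and 57.6% of kept peaks (56.6 to 58.5%). Among kept peaks weighted to the same scores the share was 49.8%. The lowest 3 deciles carry 67.2% of that weighting and hold only 231 kept peaks. In deciles 1 and 3 the kept share was the higher, and in decile 2 the absent share. In deciles 4 to 6 it touched 56.8% of absent peaks (54.7 to 58.8%), against 47.7% of kept peaks weighted by score and 53.7% weighted by score and width. The centre of the H3K4me3 peak lay inside H3K4me1 in 33.1% of absent and 13.7% of kept peaks. Where the marks met, H3K4me1 covered a median of 58.3% of the absent peak and 29.3% of the kept peak. After weighting to score, the kept share with a covered centre was 31.1%. In deciles 4 to 6 the centre was covered in 30.5% of absent peaks, against 21.8% of kept peaks weighted by score and 23.8% weighted by score and width.

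**Figure D2:**
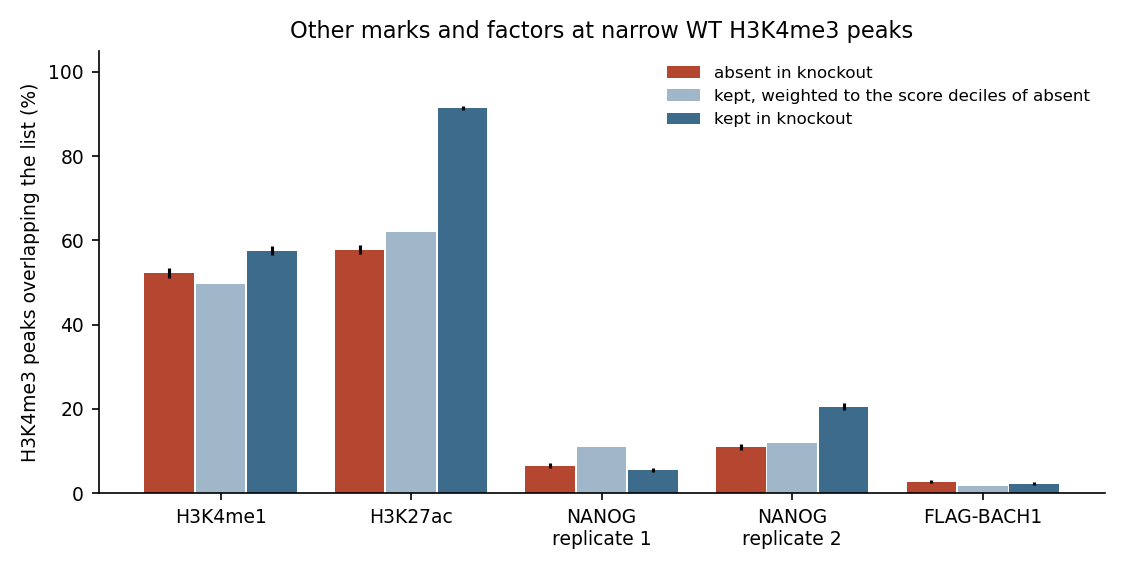
Percent of narrow WT H3K4me3 peaks that overlap (1 bp) a WT H3K4me1, H3K27ac or NANOG peak or a FLAG-BACH1 peak, for absent peaks, kept peaks weighted to the score deciles of the absent peaks, and kept peaks (bars with exact 95% binomial intervals; none for the weighted value). The H3K27ac bars stand at 57.8, 62.0 and 91.4%.

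**Figure D3:**
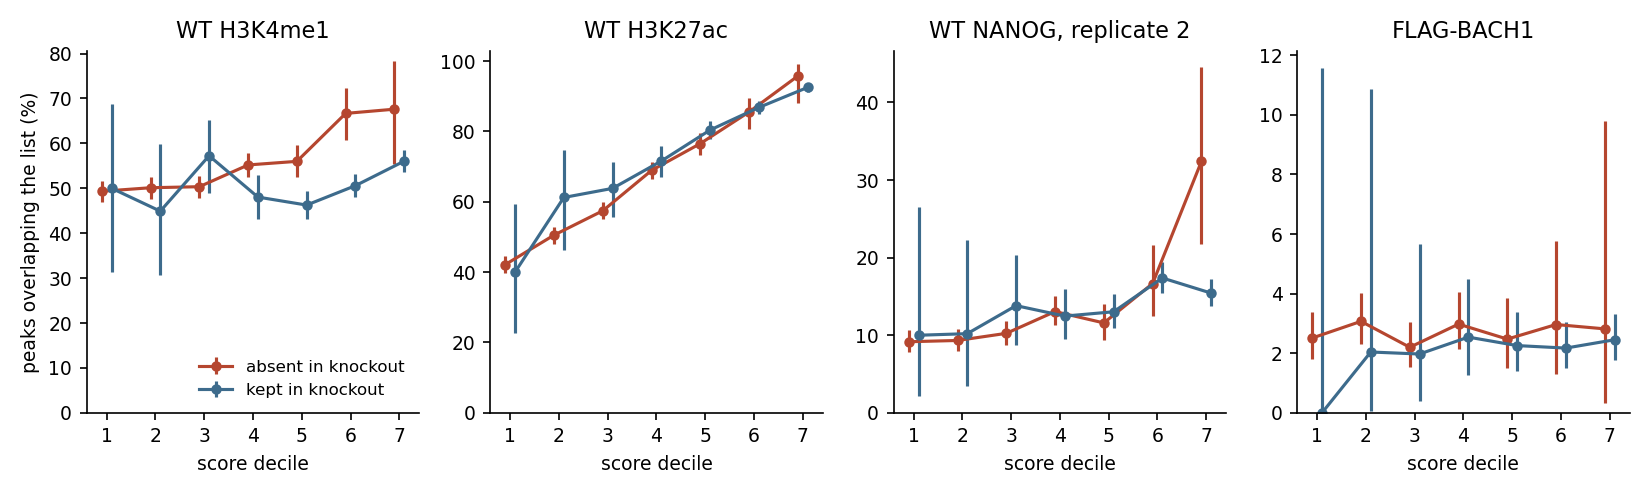
The same overlap by decile of WT H3K4me3 score, deciles 1 to 7, for absent and kept peaks with exact 95% binomial intervals; the y axes differ in scale and start at 0. H3K27ac climbs with score alike in both groups, while H3K4me1 is more frequent in absent than kept peaks from decile 4 to decile 7.

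Sorted by both marks in WT cells, 35.0% of absent peaks carried H3K4me1 and H3K27ac, 22.8% H3K27ac alone, 17.3% H3K4me1 alone and 24.9% neither. Kept peaks had 54.7, 36.7, 2.86 and 5.72% in the same classes, and 36.1, 25.9, 13.6 and 24.3% after weighting to score. The 1850 absent peaks with neither mark were the narrowest class, at a median of 1475 bp, and had a median H3K4me3 score of 80.4. The 2605 with both marks were the widest, at 2285 bp, with a median score of 115.

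In the knockout lists the absent peaks held more H3K4me1 and less H3K27ac than in the WT lists. A knockout H3K4me1 region touched 77.2% of absent peaks, against 52.3% for WT H3K4me1, and the peak centre lay inside H3K4me1 in 59.9% in the knockout and 33.1% in WT. Knockout H3K27ac touched 33.3% of absent peaks, against 57.8% for WT H3K27ac. Kept peaks shifted the same way, with H3K4me1 at 82.7% in the knockout and 57.6% in WT, and H3K27ac at 74.4% and 91.4%. For both marks the longer list had the larger share. The longer list of each pair was then reduced to its strongest peaks, as many as the shorter list holds. At absent peaks the knockout minus WT difference was then 6.13 percentage points in place of 24.9 for H3K4me1 (36001 peaks each). For H3K27ac it was -5.39 in place of -24.5 (25755 each). Such a cut cannot raise the share of the longer list, so the difference could only shrink or turn. The part of list length was not tested.

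Among absent peaks, the class with H3K4me1 alone differed most between the lists of the genotypes. It held 48.9% of absent peaks in the knockout lists and 17.3% in the WT lists, and 17.9% of kept peaks in the knockout lists and 2.86% in the WT lists. Among kept peaks the class with H3K27ac alone differed most, at 9.62% in the knockout lists and 36.7% in the WT lists. Of the 2605 absent peaks with both marks in WT, 1444 (55.4%) had both and 1074 (41.2%) had H3K4me1 alone in the knockout. Of the 5465 kept peaks with both marks in WT, 81.2% had both and 13.6% had H3K4me1 alone in the knockout. Of the 1850 absent peaks with neither mark in WT, 913 (49.4%) had H3K4me1 alone in the knockout, as had 42.4% of the 571 kept peaks of that class.

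**Figure D4:**
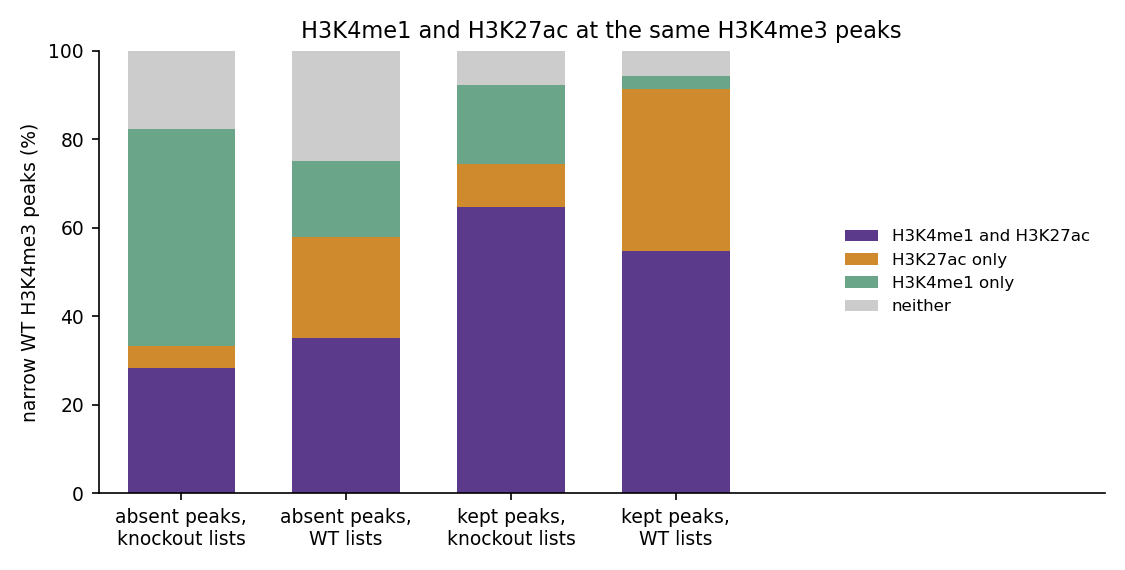
Narrow WT H3K4me3 peaks by overlap with H3K4me1 and H3K27ac, in stacked percent of absent and of kept peaks, read from the knockout lists and from the WT lists. H3K4me1 without H3K27ac makes up 48.9% of absent peaks in the knockout lists and 17.3% in the WT lists.

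WT H3K27ac was still called in the knockout at fewer absent than kept peaks, and weighting the kept peaks took away most of that gap. Over the whole genome, 53.9% of WT H3K27ac peaks and 13.5% of WT H3K4me1 regions had no peak of the same kind in the knockout. For WT NANOG peaks it was 78.6% and 69% in replicates 1 and 2. These shares count peaks of the mark itself. The shares below count H3K4me3 peaks with any knockout peak of the mark, so the genome-wide shares are no baseline for them. Among absent peaks with WT H3K27ac, 2249 of 4302 (52.3%, 50.8 to 53.8%) still had H3K27ac in the knockout. Among kept peaks it was 7303 of 9132 (80.0%, 79.1 to 80.8%). Weighting the kept peaks to the WT H3K27ac strength of the absent ones gave 60.2%, and weighting them to H3K4me3 score gave 55.3%. H3K4me1 was still called in the knockout at 95.3% of absent and 94.6% of kept peaks that had it in WT. It was called in the knockout alone at 57.4% of absent peaks without it in WT (2035 of 3547) and at 66.6% of such kept peaks, or 50.3% after weighting to score.

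**Figure D5:**
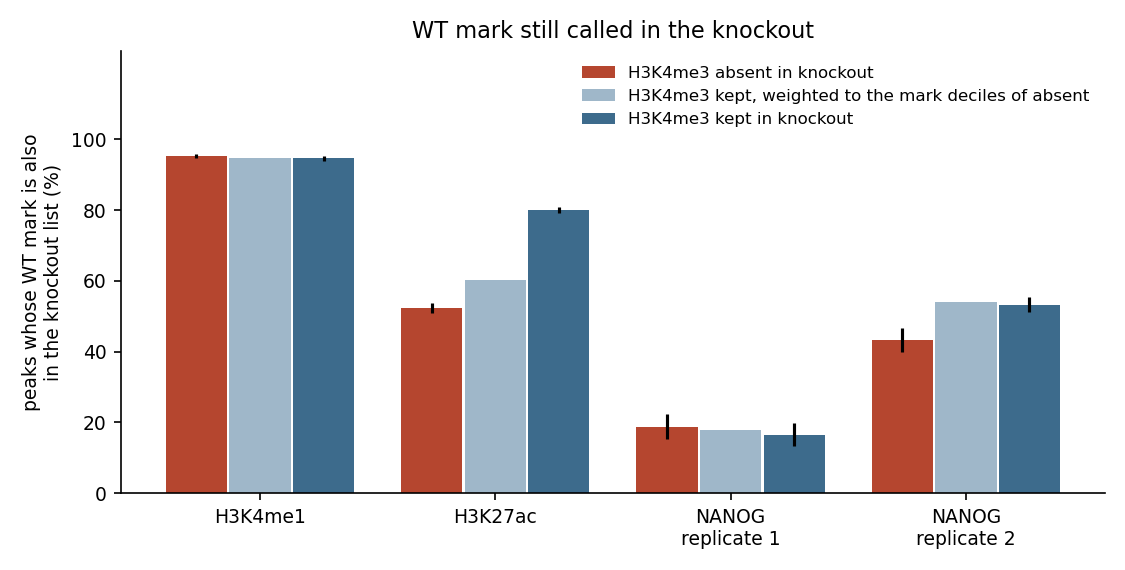
Percent of narrow WT H3K4me3 peaks with a WT mark that also overlap a knockout peak of that mark, for absent peaks, kept peaks weighted to the strength deciles of that mark at absent peaks, and kept peaks (exact 95% binomial intervals; none for the weighted value). H3K4me1 is still called at about the same share in both groups, and H3K27ac at 52.3% of absent and 80.0% of kept peaks.

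The NANOG replicates differed in which narrow H3K4me3 peaks they marked. In WT replicate 1, NANOG peaks overlapped 6.55% of absent peaks (5.99 to 7.13%) and 5.48% of kept peaks (5.04 to 5.94%). In WT replicate 2 they overlapped 10.9% of absent peaks (10.2 to 11.7%) and 20.6% of kept peaks (19.8 to 21.4%). In deciles 4 to 6 the absent and weighted kept shares were 6.73 and 7.77% in replicate 1 and 13.0 and 13.2% in replicate 2. The replicates shared 168 absent peaks, 89.3% of which carried WT H3K4me1 and 83.9% WT H3K27ac. Of the 6307 absent peaks with NANOG in neither WT list, 48.3% carried H3K4me1 and 54.1% H3K27ac.

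Knockout NANOG did not change in 1 direction at absent peaks. It overlapped 1.25% of them in knockout replicate 1, against 6.55% in WT replicate 1, and 21.2% in knockout replicate 2, against 10.9% in WT replicate 2. The mean difference, knockout minus WT, was 2.51 percentage points (exact permutation test of 2 against 2 lists, two-sided, p = 1). The smallest p that this design allows is 0.333. The labels do not say whether the NANOG replicates came from separate cultures, so this p covers only the spread between the lists, which may be technical. Kept peaks moved the same ways, at 0.951% in the knockout and 5.48% in WT in replicate 1, and 40.5% and 20.6% in replicate 2. In each replicate the longer list had the larger share. With the lists of each pair at equal length, the differences at absent peaks were 0.161 points in replicate 1 and 0.793 in replicate 2. That cut cannot raise the share of the longer list, and the part of list length was not tested. Of absent peaks with WT NANOG, 18.7% in replicate 1 and 43.2% in replicate 2 kept a NANOG call in the knockout, and of kept peaks 16.5% and 53.3%. Weighted to H3K4me3 score the kept shares were 32.3% and 37.6%, which turns the order in both replicates. Weighted to NANOG strength they were 17.9% and 53.9%, which leaves the order as it was. The score weighting rests on few peaks, since 5, 4 and 20 kept peaks of deciles 1, 2 and 3 had WT NANOG replicate 1.

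BACH1 touched few absent peaks, and about as few kept ones. The shorter FLAG-BACH1 list, with 2134 peaks, overlapped 199 absent peaks, 2.67% (2.32 to 3.07%), and 225 kept peaks, 2.25% (1.97 to 2.56%), or 1.68% of kept peaks weighted to score. That weighted share rests on 0, 1 and 3 kept peaks with BACH1 in deciles 1, 2 and 3. In deciles 4 to 6 the shorter list overlapped 2.81% of absent peaks, against 2.41% of kept peaks weighted by score and 2.74% by score and width. The longer merged list, with 9321 peaks, overlapped 10.3% of absent and 12.8% of kept peaks, or 9.74% of kept peaks weighted to score. Read from the factor's side, 46.9% (42.1 to 51.8%) of the 424 narrow WT peaks with a BACH1 peak of the shorter list were absent, as were 45.4% of peaks without one at matched scores. With the merged list these shares were 37.5% and 37.4%. At absent peaks the BACH1 peak had a median score of 78.0, and at kept peaks 67.6.

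The 199 BACH1-bound absent peaks carried more of the other marks than the 7241 without BACH1, at nearly the same H3K4me3 score (median 96.8 and 95.7). They were wider, at a median of 2223 bp against 1818 bp. WT H3K4me1 overlapped 77.4% of them, against 51.6% without BACH1, WT H3K27ac 75.4% against 57.3%, WT NANOG replicate 1 21.6% against 6.13% and WT NANOG replicate 2 21.1% against 10.7%. In kept peaks NANOG replicate 1 overlapped 19.6% with BACH1 and 5.15% without, and H3K4me1 72.9% and 57.2%. The gaps were smaller there for H3K27ac, at 94.7 and 91.3%, and for NANOG replicate 2, at 24.4 and 20.5%. Whether the gaps differ between absent and kept peaks was not tested. The part of the greater width in these shares was not tested.

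A small group of absent peaks had high WT scores. In the top 4 score deciles, 94 peaks were absent and 6877 kept. H3K27ac was as frequent at these 94 as at score-weighted kept peaks, at 93.6 and 93.4%. NANOG replicate 2 overlapped 33.0% of them (31 peaks, 23.6 to 43.4%) against 17.0%, NANOG replicate 1 12.8% (12 peaks, 6.77 to 21.2%) against 5.01%, and H3K4me1 69.1% (65 peaks, 58.8 to 78.3%) against 56.7%. BACH1 overlapped 3 of the 94, 3.19% (0.663 to 9.04%), against 2.37%. Their median width was 3196.5 bp, against 3005 bp in kept peaks of these deciles, not weighted to score. Decile 7 held 71 of the 94, and there the medians were 3047 bp in absent and 2632 bp in kept peaks. The part of the greater width in the shares above was not tested.

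The 10 absent peaks of highest score ran from 549 to 948. The first and second were neighbours on chromosome Y, at chrY:2884369-2887593 with a score of 948 and chrY:2882689-2884283 with a score of 757, and neither overlapped a peak of any other list. The first lay 842 bp and the second 4152 bp from the nearest knockout H3K4me3 peak. The other 8 all carried WT H3K27ac, and 7 of them also knockout H3K27ac.

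Of these 8, the peak at chr8:28085989-28090956 scored 738 and was the only one with a BACH1 peak (BACH1 score 62.6). Its H3K27ac score was 88.4 in the knockout and 162 in WT, and H3K4me1 was called in both genotypes, with the nearest knockout H3K4me3 peak 42185 bp away. The peak at chr11:53163131-53167868 scored 612 and lay on H3K27ac scored 2330 in the knockout and 3100 in WT. A score of 3100 was reached or passed by 1395 WT H3K27ac peaks, in a list that ended at 3233. Scores that near the top are not read as exact. This H3K4me3 peak also overlapped NANOG in WT replicate 1 (3.57-fold enrichment) and in knockout replicate 2 (5.05-fold). The region had no H3K4me3 call in the knockout and high H3K27ac scores in both genotypes.

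The peak at chr8:74092057-74095698 scored 710, with H3K27ac scores of 196 in the knockout and 1185 in WT. The peak at chr11:32353987-32357325 scored 549, with H3K27ac scores of 681 in the knockout and 1813 in WT and NANOG in replicate 2 at 6.00-fold in the knockout and 3.21-fold in WT. The 3 others of the 10 were chr16:9992051-9996007 (score 724), chr3:79088865-79092234 (score 611) and chr17:34323342-34325992 (score 561), where H3K27ac was called in both genotypes. At chr11:97545772-97549559, with a score of 610, H3K27ac was called in WT (score 108) and not in the knockout, and H3K4me1 in the knockout (3.65-fold) and not in WT. It is the peak among the 10 where both other marks changed their call. Scores of different lists rest on different depths and are given side by side only.

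Among absent peaks with BACH1, the 5 of highest H3K4me3 score ran from 339 to 738, and all 5 carried WT H3K27ac and knockout H3K4me1. After the chromosome 8 region they were chr11:54909884-54913252 (score 437, BACH1 score 56.2), chrX:72348234-72353218 (score 436, BACH1 score 64.98), chr15:76352029-76355276 (score 361, BACH1 score 80.0) and chr1:58086171-58088422 (score 339, BACH1 score 143). Of the 5, the chromosome 15 region alone overlapped WT NANOG, in replicate 2 at 5.84-fold, and the chromosome X region alone had no H3K27ac call in the knockout.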

How the data were processed

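The analysis rests on peak lists of 13 ChIP samples and on RNA values of 6 libraries from a series of 23 samples. Positions are mm9, the build in the submitters' processing notes, which list MACS2 and Bowtie2 among the tools without giving each a step. Peaks were called by the authors per list, and each NANOG replicate 1 list belongs to a pair of samples, per the labels. Run numbers in the names of the H3K4me1 lists and of the knockout NANOG replicate 1 list do not all match the sample descriptions, so which runs were pooled is unclear. The deposited H3K4me3, H3K27ac and FLAG-BACH1 lists carry a score of 10 times −log10 p in the older MACS layout. The deposited NANOG and H3K4me1 lists carry a fold enrichment ratio and a −log10 q value by the authors' caller, the second of which was not used. The merged BACH1 list deposited by the authors was used for positions only. RNA values are TPM as deposited, which keep no depth, and served to check Bach1 and cell markers.

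Overlap meant at least 1 bp, and where several peaks of a list overlapped, the highest value was taken. Deciles of score and width were cut over the 17429 narrow WT peaks, and deciles of mark strength over those with the WT mark. Most weighted shares average the kept peaks' share per decile with the absent peaks' frequencies. Width bins and chromosomes were weighted to the score deciles of all narrow peaks. Shares absent without BACH1 were weighted to the score deciles of the peaks with it. Intervals are exact Clopper-Pearson at 95%. The interval code was checked on 300 simulated intervals, base by base, with 0 differences. Regions were named by rule: the 10 highest-scoring members, the 5 highest with BACH1 and those nearest the rule's limits. The members and comparisons were chosen with earlier results of these data known. The planned RNA and sequence results needed mm9 gene starts or a genome and were not made. Python 3.11.15, numpy 2.4.6, pandas 2.3.3, scipy 1.17.1 and matplotlib 3.10.9 were used.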

Additional observations from a re-analysis of the deposited data

How the results depend on the processing

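The number of absent peaks, 7440, was 4420 (72.0%) under 2000 bp and 3523 (26.3%) among WT peaks scoring at least 100. The share was 40.5% with no width limit, 41.3% when a knockout peak within 1000 bp counted as kept, and 58.2% against knockout peaks scoring at least 100. Absent minus kept differences in percentage points depended on matching. For H3K4me1, -5.25 became -1.87 at scores of at least 100, 2.57 weighted to score, 14.1 weighted to width, 16.7 with 50% of the peak covered, and 9.03 and 3.05 in deciles 4 to 6 weighted to score and to score and width, settings chosen after seeing the data. For H3K27ac, -33.6 became -31.6 within 1000 bp, -22.0 at scores of at least 100, -4.21 weighted to score, -21.6 to width, -1.39 with 50% covered, and -2.89 and -5.01 in deciles 4 to 6. For NANOG replicate 1, 1.07 became -4.48 weighted to score, 3.02 to width, and -1.04 and -2.66 in deciles 4 to 6. For NANOG replicate 2, -9.61 became -7.74 at scores of at least 100, -1.03 weighted to score, -4.90 to width, 0.0103 with 50% covered, and -0.227 and -1.53 in deciles 4 to 6. Leaving out a NANOG replicate gave -9.61 to 1.07 around a mean of -4.27. For BACH1, 0.422 became 0.999 weighted to score, 0.928 to width, 0.406 and 0.0750 in deciles 4 to 6, and -2.47 with the merged list. Weighting to score rests on 231 kept peaks for 67.2% of its weight.

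Knockout minus WT at absent peaks, in points, was 28.2 with 50% covered and 6.13 at equal list length for H3K4me1, -16.4 and -5.39 for H3K27ac, -0.699 and 0.161 for NANOG replicate 1 (-6.01 within 1000 bp), and 0.0672 and 0.793 for NANOG replicate 2. Without a replicate the NANOG mean of 2.51 ran from -5.30 to 10.3. Pairing the NANOG lists by replicate number, a replicate block added after seeing the data, left 2.51 (exact permutation p = 1). Cutting the longer list to equal length cannot raise its share, so the differences there could only shrink or turn. The cause of the changes was not tested for any setting. The planned RNA alternatives were not run, because no gene could be placed at a peak.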
